A study of Bombyx mori with 3 samples.

Results

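RpL3 and actin A3 are protein-coding messages and 2 of the 3 named controls on an array of silkworm non-coding RNAs (ncRNAs). Their levels in egg, pupa and adult were set against larva. Both messages were taken by name from the 3 stage tables, where control_RpL3 and control_actinA3 each have 12 spots. That is 24 of the 561 spots and 2 of the 142 named probes per table. All animals were Bombyx mori of strain Dazao P50, raised after hatching at 25 °C, with 14 h of light, 10 h of dark and 70% relative humidity. Egg was 1 pool of RNA from eggs with and without diapause, pupa 1 pool over the first to the ninth day of pupation, and adult 1 pool of male and female moths. The reference in every hybridisation was larval RNA mixed over the first to the fifth instar. By the column names, each stage was labelled once with Cy5 (red) and once with Cy3 (green), so a stage table lists 2 scans with the dyes swapped. The column names call the egg sample embryo. The scan labelled as adult in Cy3 and that labelled as pupa in Cy5 hold the same flag at all 561 spots, the 24 control spots included, and at the 7 kept RpL3 spots their log2 red over green differed by at most 0.076. Which stage this scan holds is not settled, so it was left out for pupa. Adult values of the controls are given by scan, and averages over both adult scans include it. Pools average over animals and, for these stages, over days, sexes or diapause states. With 1 pool per stage the stages cannot be tested against each other, and each SD below is taken over repeated spots of 1 probe, which is technical. The number of arrays limits the precision.

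RpL3 is a protein of the large ribosomal subunit that lies close to the site where peptide bonds form, and its message is made in every cell that builds ribosomes. Actin A3 is a cytoplasmic actin of the silkworm, a subunit of the filaments that shape and move cells. Messages of both kinds are widely used as internal references for RNA levels, on the assumption that they vary little between samples. In bulk RNA, fewer cells that carry a message and less message per cell cannot be told apart. Both names match 1 gene each in the RefSeq gene table (assembly ASM3026992v2), RpL3 under its own symbol and actin A3 as A3. In that table the genes next to A3 are LOC105841644 and A4, of which A4 is another actin. Whether the A3 probe also binds the A4 message was not tested.

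RpL3 was higher in egg than in larva in both dye orientations, at 1.85-fold on average. Actin A3 was slightly lower in egg, at 1.24-fold. In adult, RpL3 was at its larval level with adult in Cy5 and 1.44-fold lower with adult in Cy3, and actin A3, measured in 1 orientation, was 1.22-fold lower. Both of the lower adult readings came from dim spots. In the adult channel, 0 of 7 kept RpL3 spots (adult in Cy3) and 0 of 6 kept actin A3 spots (adult in Cy5) reached the 95th percentile of negative spots. With adult in Cy3 that percentile (1568) was nearly as high as the median kept ncRNA spot (1643). The median of all 12 spots still stood at 6.36 times the median negative spot for RpL3 and 5.29 times for actin A3. The sizes of these folds are therefore uncertain. The third named control, ph, was also higher in egg, at mean log2 ratios of 0.39 (egg in Cy5) and 0.69 (egg in Cy3). All of its 10 and 11 kept spots there lay above 0. In adult its mean was 0.66 in the Cy5 scan and 1.03 in the Cy3 scan, whose stage is not settled. All 12 spots of each were above 0, so ph did not share the lower RpL3 reading of the Cy3 scan. The pupal scan gave ph 0.26, with 8 spots above 0 and 4 below. In pupa neither RpL3 nor actin A3 could be measured, since the scan with larva in Cy5 had 0 of 12 kept spots for each. A kept spot is one whose deposited flag is 0 or above. A change was called at 2-fold or more (1 on the log2 scale) where every kept spot of every scan had the same sign, and by this rule 0 of the 2 controls changed in egg or adult. Of 126 measured ncRNAs this rule called 3.97% higher and 0.794% lower in egg, and 2.38% higher and 0.794% lower in adult. With adult in Cy5 alone it called 1.69% of 118 ncRNAs higher and 2.54% lower.

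**Figure D1:**
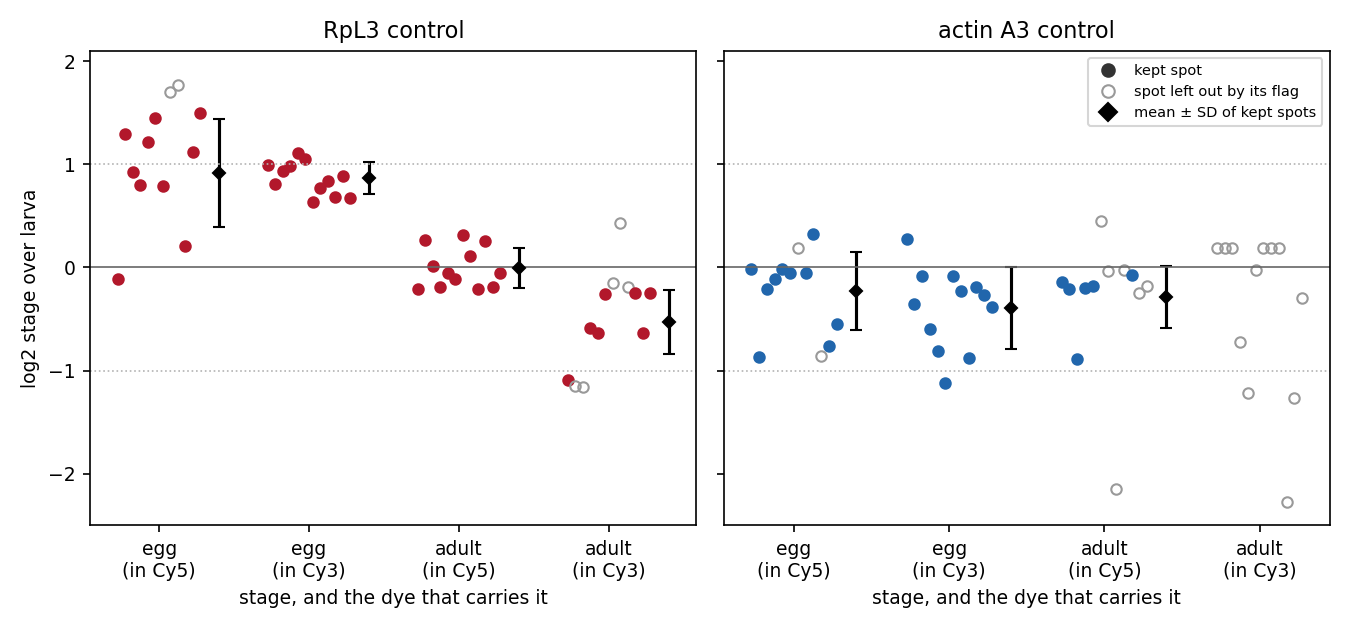
Log2 ratio of stage over larva (vertical axis) for each of the 12 spots of the RpL3 (left) and actin A3 (right) controls, by stage and dye, in row order within a column. Filled circles are kept spots, open circles spots left out by their flag, and diamonds the mean ± SD of the kept spots. The dotted lines mark 2-fold. RpL3 lies above 0 in egg at all but 1 kept spot and lies around 0 in adult in Cy5, and actin A3 has no kept spot with adult in Cy3.

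In the scan with egg in Cy5, RpL3 gave log2 ratios of egg over larva of -0.11 at the lowest, 1.02 at the median and 1.49 at the highest of 10 kept spots. Of these, 9 were above 0. With egg in Cy3 the 12 kept spots lay closer together, at 0.63, 0.86 and 1.11, and all 12 were above 0. The mean was 0.92 ± 0.52 with egg in Cy5, and the Cy3 scan of egg gave 0.86 ± 0.16 (SD over spots). Averaged over both orientations, the value was 0.89 ± 0.26 (SD, 12 spots), with the mean of each of the 12 spots above 0. The 2 orientations therefore differed by 0.055 on the log2 scale. The median gap of 104 ncRNAs measured in both egg scans was 0.24, and 89 of them had a larger gap. Each ncRNA has 3 spots and each control 12, so the ncRNA gaps, here and below, rest on fewer spots and are not alike in precision.

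The signals behind these ratios were above background for most spots. With egg in Cy3, the RpL3 intensity was 540 at the lowest, 2700 at the median and 5966 at the highest spot in the egg channel, against 292, 1437 and 2889 in the larval channel. Across the 108 negative spots the 95th percentile was 171 for egg and 168 for larva, and all 12 RpL3 spots exceeded it in both channels. With egg in Cy5, the 10 kept spots lay at 1030, 1443 and 3159 in the egg channel, against 420, 908 and 2471 in the larval channel. Of these, 10 exceeded that percentile in the egg channel (318) and 8 in the larval channel (504). The pair of spots left out by their flag, with ratios of 1.70 and 1.77, had the lowest larval intensities of the scan for this probe, 154 and 147.

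The 12 rows of a control stand in 4 runs of 3 consecutive rows, the number of rows that each ncRNA has, and with egg in Cy3 the runs of RpL3 differed far more in signal than in ratio. This grouping was chosen after the values were seen, and the tables do not give the position of a spot on the slide. With egg in Cy3, the RpL3 signal in the egg channel was 4233 to 5529 in the first run and 4859 to 5966 in the second, while it was 816 to 1166 in the third and 540 to 812 in the last. The highest spot was 11.0 times the lowest in the egg channel and 9.89 times in the larval channel. Runs held 97.9% of the variance of the log2 egg signal. The ratio nevertheless stayed within 0.75 to 1.05 as the mean of a run, at 0.91, 1.05, 0.75 and 0.75 in row order. In this scan the brighter pair of runs gave somewhat higher ratios than the dimmer pair, and runs held 70.7% of the variance of the ratio.

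**Figure D2:**
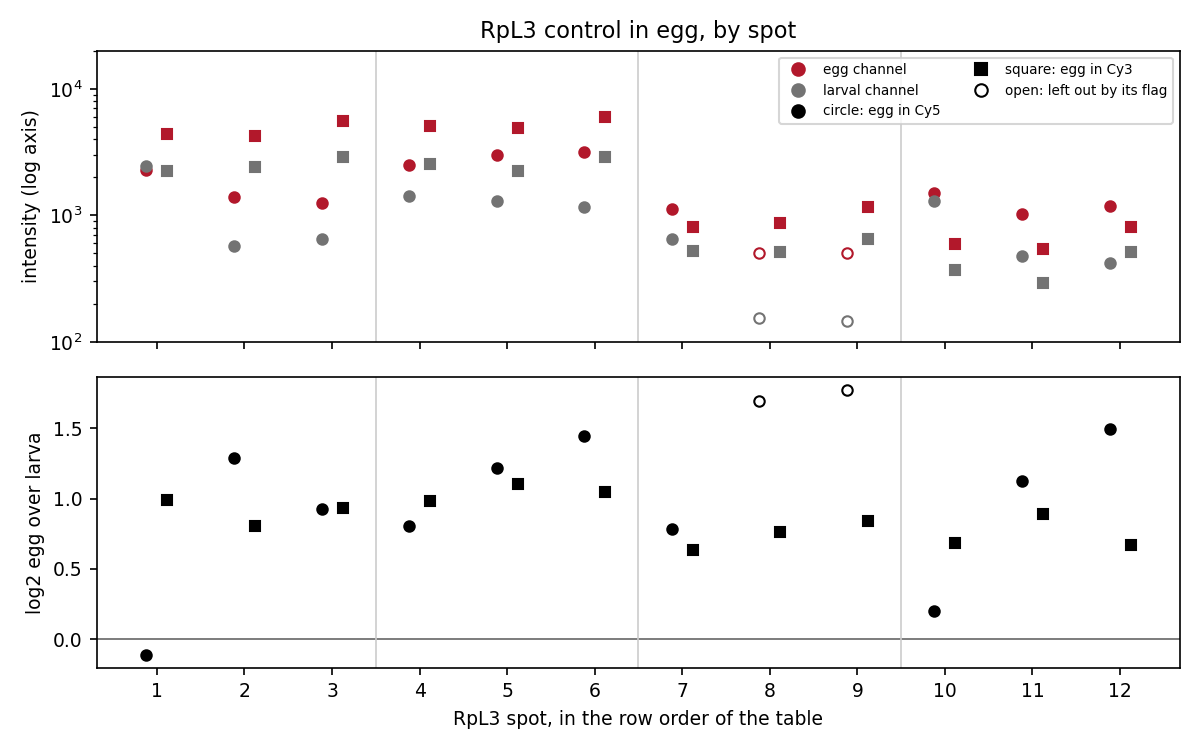
The 12 RpL3 spots of the egg table in row order (horizontal axis), with the intensity of the egg channel (red) and the larval channel (grey) on a log axis above, and the log2 ratio of egg over larva below. Circles are the scan with egg in Cy5, squares the scan with egg in Cy3, open symbols spots left out by their flag, and thin lines part the runs of 3 rows. The signal drops between the sixth and the seventh spot with egg in Cy3, and the ratio of these squares stays between 0.63 and 1.11.

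With egg in Cy5, the run means were 0.70, 1.16, 0.79 and 0.94, the third from 1 kept spot. Here the spread lay inside the runs. The rows listed first in their run averaged 0.42 over 4 kept spots, while the other rows averaged 1.25 over 6, and the lowest ratios of the scan, -0.11 and 0.20, belonged to the first row of the first run and the first row of the last. With egg in Cy3 the corresponding means were 0.82 over 4 spots and 0.88 over 8. With egg in Cy5, the first row of every run was the brightest in the larval channel. It read 2471 in the first run and 1295 in the last, against 571 to 654 and 420 to 473 for the rows after it. In the second run it read 1429 against 1161 to 1296. In the third it read 648 against 147 to 154, where the rows after it were left out by their flag. In the same scan, no run of actin A3 had its first row brightest in the larval channel. The part of row order in the Cy5 ratio of RpL3 was not tested.

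Actin A3 in egg gave log2 ratios of -0.86 at the lowest, -0.083 at the median and 0.33 at the highest of 10 kept spots with egg in Cy5. It gave -1.12, -0.31 and 0.28 over 12 kept spots with egg in Cy3. In each scan 1 kept spot lay above 0 and the rest below. The mean was -0.23 ± 0.38 with egg in Cy5, and the Cy3 scan of egg gave -0.39 ± 0.39, so that neither mean exceeded the SD over its spots. Averaged over both orientations the value was -0.31 ± 0.23 (SD, 12 spots), with 11 of 12 spots below 0. The orientations differed by 0.16, and 68 of 104 ncRNAs, with fewer spots each, had a larger gap.

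Actin A3 was measurable in both egg scans. With egg in Cy3, its intensity was 203, 530 and 925 at the lowest, median and highest spot in the egg channel, against 232, 596 and 1521 in the larval channel, and all 12 spots exceeded the negative spots' 95th percentile in both. With egg in Cy5, the 10 kept spots lay at 291, 734 and 1415 in the egg channel, against 302, 814 and 1466 in the larval channel. In each channel 9 of the 10 exceeded that percentile. The run means were -0.36, -0.058, 0.14 and -0.65 with egg in Cy5, and -0.052, -0.84, -0.40 and -0.28 in the Cy3 scan of egg. No run kept its place between the scans as highest or lowest, and the third run changed sign.

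The egg-over-larva ratios of RpL3 and actin A3 lay apart. Within the scan with egg in Cy3, the lowest of 12 RpL3 ratios (0.63) lay above the highest of 12 actin A3 ratios (0.28), so the spots of the controls did not overlap. With egg in Cy5 they overlapped, with 8 of 10 RpL3 spots above the highest actin A3 spot (0.33). The log2 ratio of RpL3 minus that of actin A3 was 1.15 with egg in Cy5, and the Cy3 scan of egg gave 1.26. Their mean was 1.20 ± 0.34 (SD of both controls' spots combined), a 2.30-fold difference. A shift common to all spots of a scan cancels in this difference. It compares 2 changes against larva, not the level of RpL3 with that of actin A3.

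In adult, RpL3 gave log2 ratios of adult over larva of -0.21 at the lowest, -0.055 at the median and 0.31 at the highest of 12 kept spots with adult in Cy5, 5 above 0 and 7 below. The mean was -0.0054 ± 0.20 (SD, 12 spots). With adult in Cy3, 7 spots were kept, at -1.09, -0.58 and -0.25, all below 0, with a mean of -0.53 ± 0.31. The orientations thus differed by 0.52, where the median gap of 112 ncRNAs measured in both adult scans was 0.17 and 10 of them had a larger gap. Averaged over both, RpL3 was at -0.27 ± 0.29 (SD, 12 spots), a value no larger than its spread and one that neither scan gave. This SD is over 12 spot means, of which 7 average both scans and the others hold adult in Cy5 alone. The spot means average -0.14, so the SD is not centred on -0.27 and also takes in the gap between the scans.

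In the scan with adult in Cy3, the one whose label is not settled, the RpL3 spots were dim. The 7 kept spots lay at 153, 449 and 650 in the adult channel, against 325, 600 and 973 in the larval channel. None (0) reached the negative spots' 95th percentile, which was 1568 for adult and 1551 for larva. The median of the negative spots was 63.5 and 98.3, and the median of all 12 RpL3 spots was 6.36 and 4.92 times that. The 95th percentile of this scan lay close to the median kept ncRNA spot, 1643 for adult and 1594 for larva. Of 12 kept ph spots, 6 reached it in the adult channel and 1 in the larval channel. With adult in Cy5 the RpL3 spots lay at 511, 887 and 4668 in the adult channel, against 532, 885 and 3754 in the larval channel. Of the 12 spots, 7 exceeded that percentile in the adult channel (792) and 10 in the larval channel (638). The brightest pair, at 4668 and 2796 in the adult channel, had ratios of 0.31 and 0.25. The part of brightness in the gap between the scans was not tested.

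Actin A3 in adult was measured with adult in Cy5 only, in 6 of 12 spots. Its log2 ratio was -0.89 at the lowest, -0.19 at the median and -0.078 at the highest of these, all below 0, with a mean of -0.28 ± 0.30 (SD, 6 spots). A dye effect is not removed from this value, and the third run of rows gave no spot to it. The 6 spots lay at 432, 592 and 674 in the adult channel, against 605, 726 and 801 in the larval channel. None (0) reached the negative spots' 95th percentile in the adult channel (792) and 4 did in the larval channel (638). Without the spot at -0.89, the other 5 kept spots lay between -0.21 and -0.078.

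With adult in Cy3, 0 of 12 actin A3 spots were kept. The adult channel read 57.2 at the lowest, 59.2 at the median and 85.2 at the highest spot, and 6 of the 12 spots held the lowest intensity found anywhere in that channel. The larval channel read 50.1, 62.7 and 309.7. The medians of the negative spots in the same channels were 63.5 and 98.3. The median actin A3 spot was thus below the median negative spot in the larval channel as well as in the adult channel of that scan.

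Within the scan with adult in Cy5, the log2 ratio of RpL3 minus that of actin A3 was 0.28 ± 0.36 (SD of both controls' spots combined), less than its spread. Of 12 RpL3 spots, 7 lay above the highest actin A3 spot. In egg the corresponding scan, with the stage in Cy5, gave 1.15. The adult and egg values share the larval RNA, and with 1 pool each their difference was not tested.

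Pupa gave no usable value for either control. In the scan with larva in Cy5 and pupa in Cy3, the 12 RpL3 spots read 49.0, 74.6 and 285 at the lowest, median and highest in the pupal channel, against 55.6, 126 and 418 in the larval channel. The 12 actin A3 spots read 49.0, 121 and 214 in the pupal channel, against 55.6, 107 and 157 in the larval channel. Of all these readings, 1 reached the negative spots' 95th percentile (369 for pupa and 377 for larva), that of an RpL3 spot in the larval channel. The median RpL3 spot stood at 1.30 times the median negative spot in the pupal channel and 1.95 times in the larval channel, and actin A3 at 2.11 and 1.67 times. Larval RNA, which gave up to 2889 units for RpL3 and up to 1521 for actin A3 in the egg scans, read near background on these spots too. The third named control of the array, ph, was kept at 12 of 12 spots in the same scan, with a median intensity of 1157 in the pupal channel and 835 in the larval channel, and 76.5% of ncRNA spots were kept.

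**Figure D3:**
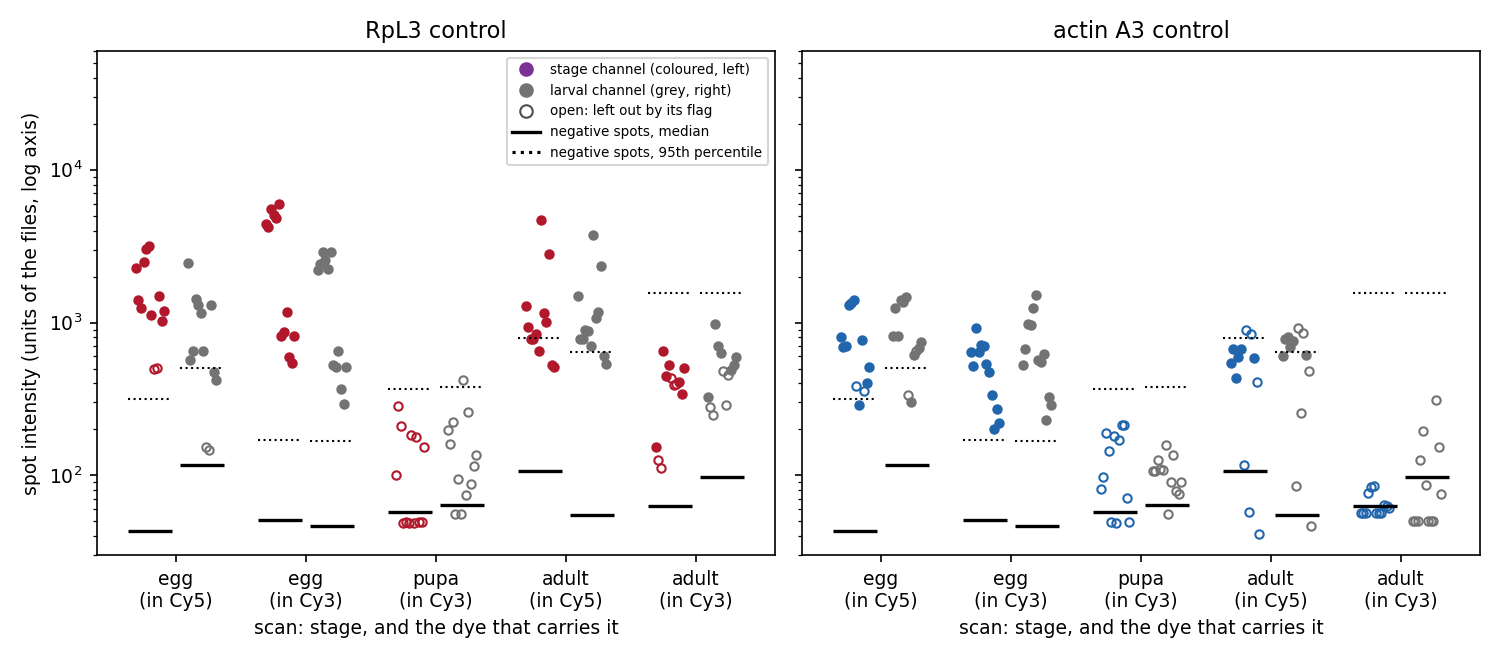
Intensity of each RpL3 (left) and actin A3 (right) spot on a log axis, in the 5 scans used, with the stage channel coloured and the larval channel grey beside it. Open circles are spots left out by their flag, and the bars give the median (solid) and the 95th percentile (dotted) of the 108 negative spots of the same channel. Both controls lie near the negative median in both channels of the scan with pupa in Cy3, and actin A3 does so again with adult in Cy3.

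The number of kept spots differed between scans, also between those of 1 stage. RpL3 kept 10 and 12 spots in the egg scans, 0 in the pupal scan, and 12 and 7 in the adult scans with adult in Cy5 and in Cy3. Actin A3 kept 10, 12, 0, 6 and 0 in the same order. Over these scans between 73.7% and 85.9% of ncRNA spots were kept, and ph kept 10 to 12 spots. The larval median of RpL3 over all 12 spots was 651 and 1437 in the egg scans, 126 in the pupal scan, and 885 and 483 in the adult scans. The larval median of actin A3 was 778 and 596 in the egg scans, 107 in the pupal scan, and 654 and 62.7 in the adult scans. The pupal scan and the scan with adult in Cy3 carry a suffix in their column names that the other 3 lack, and the tables do not say what it marks.

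Among the ncRNAs, RpL3 stood near the top in egg and actin A3 in the lower part. In egg, 6 of 126 ncRNAs had a log2 ratio above that of RpL3 (0.89) and 120 had one below it, around an ncRNA median of 0.042 with quartiles of -0.22 and 0.28. Actin A3 (-0.31) stood lower, with 105 ncRNAs above it and 21 below. With adult in Cy5 alone, RpL3 (-0.0054) stood in the middle of 118 ncRNAs, with 60 above it and 58 below, and actin A3 (-0.28) had 88 above and 30 below. Averaged over both adult scans, RpL3 (-0.27) had 94 of 126 ncRNAs above it and 32 below. That average rests in part on the scan of unsettled stage, in which no kept RpL3 spot reached the negative spots' 95th percentile. The Cy5 value of actin A3 (-0.28), set against ncRNA averages over both scans, had 97 above and 29 below. At 1.5-fold, by size alone, RpL3 in egg was the only one of the 4 RpL3 and actin A3 values past the threshold. By that measure 13.5% of ncRNAs were higher and 7.14% lower in egg. In adult, over both scans, 10.3% were higher and 7.14% lower.

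**Figure D4:**
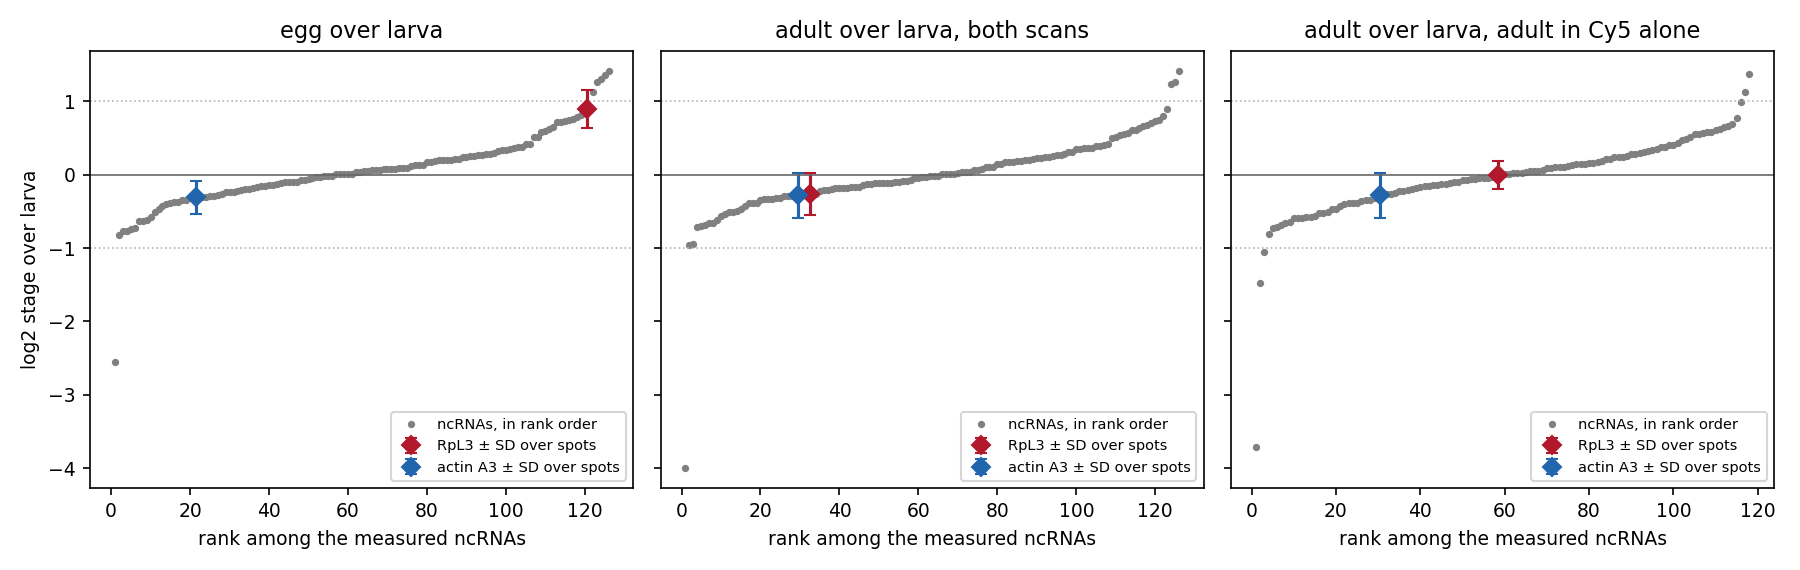
Log2 ratio of stage over larva of the measured ncRNAs in rank order (grey), 126 where both scans were used, for egg (left), adult over both scans (middle) and adult in Cy5 alone (right, 118 ncRNAs), with the RpL3 and actin A3 controls placed by their own value (diamonds, ± SD over spots). The dotted lines mark 2-fold. RpL3 stands among the highest values in egg, below the middle in adult over both scans and in the middle with adult in Cy5 alone, while actin A3 stands below the middle in all 3.

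In the authors' deposited tables, a p-value from an unstated test is listed for each spot and was under 0.05 at 10 of 12 RpL3 spots in egg, where the same held for 24.2% of ncRNA spots. It was under 0.05 at 3 of 12 actin A3 spots in egg. In the authors' deposited table for adult it was under 0.05 at 3 of 12 RpL3 spots and 1 of 6 actin A3 spots, with 39.1% of ncRNA spots. What these p-values compare is not stated. Each stage has only repeated measurements of 1 pool, which in adult include the scan of unsettled stage.

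Since both messages are of the kind used to set a common scale, the ncRNA counts were also taken relative to each of them. As deposited, 5 ncRNAs were higher and 1 was lower in egg at 2-fold. With the RpL3 ratio taken as 0, no ncRNA (0) was higher and 42 were lower in egg. With the actin A3 ratio taken as 0, 14 were higher and 1 was lower. In adult, over both scans, 3 were higher and 1 was lower as deposited, and 7 were higher and 1 was lower relative to either control. The actin A3 ratio taken as 0 there (-0.28) comes from adult in Cy5 only, though the ncRNA ratios average both scans. That of RpL3 (-0.27) averages -0.0054 with adult in Cy5 and -0.53 in the scan of unsettled stage. The split depends on the scan. With adult in Cy5 alone 2 were higher and 3 lower as deposited, again 2 and 3 relative to RpL3, and 4 and 2 relative to actin A3. With adult in Cy3 alone 5 were higher and 1 was lower as deposited. The scale shifts by the control's own log2 ratio, so each ncRNA ratio in egg was moved down by 0.89 relative to RpL3 and up by 0.31 relative to actin A3. Which control, if either, held a constant level in these animals was not tested.

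The ncRNAs whose ratios lay nearest to those of each control were found by the Euclidean distance over the mean log2 ratio of each egg and adult scan, among 98 ncRNAs kept in all 4 scans. Nearest to RpL3 were Bm-180 at a distance of 0.54, Bm-159 at 0.75 and Bm-5 at 0.84, where the median distance was 1.54. These distances include the scan with adult in Cy3, whose stage is not settled. In it Bm-180 was at -0.082, Bm-159 at 0.20 and Bm-5 at -0.32, against -0.53 for RpL3. Bm-180 had a ratio of 0.74 in egg and 0.0024 in adult over both scans (0.086 with adult in Cy5), Bm-159 of 0.81 and 0.015 (-0.17), and Bm-5 of 0.31 and -0.18 (-0.042). Actin A3 could be compared over 3 scans, since it has no value with adult in Cy3. Nearest to it were Bm-6 at a distance of 0.078, Bm-136 at 0.18 and Bm-128 at 0.24, with a median distance of 0.82. Bm-6 had a ratio of -0.35 in egg and -0.33 in adult over both scans (-0.26 with adult in Cy5). The tables give these ncRNAs no class or function.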

How the data were processed

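The authors deposited, per the file headers, a red (Cy5) and a green (Cy3) intensity and a flag for every spot and scan, with the stage in each dye named in the column. The sources used here name no software, background correction or normalization. In the 5 scans used, ncRNA spots had a median log2 ratio of -0.038 to 0.10, so the intensities were used as deposited. The authors' deposited log2 ratio equals the mean of stage over larva over kept scans within 1e-06 wherever it is given, for 408 spots of the egg table, 382 of the pupal and 410 of the adult one. The authors' deposited p-value was copied and not used to call changes.

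Log2 stage over larva was computed with no pseudocount from spots whose flag was at least 0. It was averaged over spots within each dye orientation and then over both. The SD of such an average was taken over spots, each first averaged over the scans in which it was kept. For pupa, the scan with larva in Cy5 was used. Background was judged by the 95th percentile of the 108 negative spots of a channel. The members and lists were chosen with earlier results of these data known. The named ncRNAs are the 3 nearest to each control. Alternatives were median centring, a pseudocount of 50 intensity units, leaving out dim spots, the median of spots, each dye alone, keeping spots with a negative flag, spots kept in both scans and the authors' ratio, and, added after the data were seen, leaving out spots with a flag of 100, each run of rows left out, and scaling to each control, for adult also in the Cy5 scan alone. Python 3.11.15, numpy 2.4.6 and matplotlib 3.10.9 were used. The probe sequences were not used here.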

Additional observations from a re-analysis of the deposited data

Results flagged for a closer look

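The RpL3 control had opposite signs in egg and adult, 0.89 over larva in egg and -0.27 in adult. With 1 pool per stage, the difference was not tested, and the adult value averages -0.0054 with adult in Cy5 and the -0.53 of the Cy3 scan.

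The scan labelled as pupa in Cy5 entered no pupal value above. Under its other label, adult in Cy3, it entered the adult values of that scan and the averages over both adult scans. As pupa over larva it gave RpL3 a log2 ratio of 0.51 ± 0.28 (SD, 7 kept spots). The same 7 spots are at -0.53 as adult over larva in the adult table, and the log2 red over green of the tables differed by at most 0.076 at any of them, so the value is no separate measurement of pupa.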

How the results depend on the processing

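Of 68 recomputed log2 ratios and differences of the controls, 67 moved by less than the SD over spots, some because they could not move, and 1 moved further. That 1 was RpL3 in adult with dim spots left out, at 0.067. It rests on adult in Cy5, since with adult in Cy3 no RpL3 spot reached the negative spots' 95th percentile. That percentile was 1568 for adult and 1551 for larva, near the median kept ncRNA spot of that scan. The sign of RpL3 in adult thus turned with this cutoff, and the value ranged from -0.53 to 0.067. RpL3 in egg ranged from 0.81 to 0.96, actin A3 from -0.39 to -0.20 in egg and from -0.36 to -0.15 in adult, and RpL3 minus actin A3 from 1.14 to 1.28 in egg and from 0.11 to 0.28 in adult. For actin A3 in adult, adult in Cy3 alone and spots kept in both scans gave no value. In pupa, with no kept spot, the one setting with a value kept spots of negative flag, which gave -0.48 ± 0.61 for RpL3 and 0.11 ± 0.74 for actin A3 (SD, 12 spots each) from readings at background. The count of ncRNAs past 2-fold, 6 in egg and 4 in adult, became 26 and 22 at 1.5-fold, 1 and 1 at 4-fold, 42 and 8 relative to RpL3, and 15 and 8 relative to actin A3. With egg in Cy5 alone it was 10, of which 7 were higher and 3 lower. With adult in Cy5 alone 2 were higher and 3 lower, and with adult in Cy3 alone 5 and 1. No paired analysis was possible because each stage is 1 pool.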
